A study of Mus musculus with 2 samples.

Results

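Laminins, nidogens and perlecan are the glycoproteins and the proteoglycan that build basement membranes together with type IV collagen. Their mRNAs were measured here in cultured ovaries of 2-week-old mice, through 10 genes taken as a list: the laminin chain genes Lama1, Lama2, Lama4, Lama5, Lamb1, Lamb2 and Lamc1, the nidogen genes Nid1 and Nid2, and Hspg2, which encodes perlecan. Every probe of these genes that is not a control was taken by the RefSeq accession printed in the array files, which gave 14 probes of the 55681 on the array, and the 10 genes stood among 20654 genes that could be named. The study asked which genes respond to tachykinins (TKs), neuropeptides such as substance P, while follicles still grow without gonadotropins.

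Ovaries were divided lengthwise, and the pieces spent 3 days in culture with ligands of the TK receptors (TKRs). For one group the agonists were [Sar9, Met(O2)11]-SP for TACR1, GR-64349 for TACR2 and, for TACR3, the succinylated substance P fragment known as senktide. For the other group the antagonists were L-703,606 for TACR1, GR-94800 for TACR2 and SB218795 for TACR3. Each ligand was used at 1 μM, and each group was hybridised to 1 single-colour array. The study describes the antagonists as given all together and does not say so of the agonists. The strain and the number of ovaries behind each RNA are not given in the sources used here, and untreated ovaries were not analysed here. With 1 array per group there is no spread between ovaries, so no difference below was tested and no p-value is given.

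A basement membrane is a thin sheet of matrix under epithelia and around vessels, muscle, fat and nerve. Laminins are trimers of an α, a β and a γ chain; the trimers polymerise at the cell surface, nidogens link them to collagen IV, and perlecan carries heparan sulfate chains that hold growth factors. In the ovary such a membrane encloses every follicle and separates the granulosa cells from the theca, and others lie under the surface epithelium and around the blood vessels. The α chain sets which receptors a laminin binds and differs most between tissues, whereas the γ1 chain is shared by most laminins.

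Leaving out controls, 59305 spots were read on each array, and the image software marked 65.4% of them as well above background with the agonists and 61.6% with the antagonists. No spot was saturated (0 on each array). To put the arrays on one scale, the log2 of the array's 75th percentile (672 signal units with the agonists, 569 with the antagonists) was subtracted from the log2 of each processed signal. A log2 ratio is the scaled agonist value less the scaled antagonist value, so that values above 0 are higher with the agonists. A gene with several probes is represented by its probe of highest mean signal among those well above background on both arrays, and 15256 genes had such a probe. Their median log2 ratio was -0.10, and 37.7% of them lay above 0. Of these genes 9.26% were higher with the agonists by 1.5-fold or more and 4.28% were lower by as much; for 2-fold the shares were 4.01% and 0.577%. These shares are the background against which the laminin, nidogen and perlecan genes are read. They include dim genes, whereas every member lay above the 75th percentile in mean signal. Of the 8428 genes with a probe that bright, 447 were at least 1.5-fold higher and 259 lower, and their median log2 ratio was -0.15.

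All 10 genes were measured on both arrays, with 14 of 14 probes well above background on each, and each probe was printed at 1 spot. The α chain genes Lama4 and Lama5 were the members at least 1.5-fold higher with the agonists (2 of 10, against 9.26% of all genes), Lama4 was also past 2-fold (1 of 10, against 4.01%), and 0 of 10 were at least 1.5-fold lower (against 4.28%). The median log2 ratio of the 10 genes was 0.15, and 7 of them lay above 0 (against 37.7% of all genes). Relative to the median of all genes, the median of the 10 was 0.24 higher. Among the 4 α chain genes the range was 1.35 on the log2 scale, from -0.10 for Lama2 to 1.25 for Lama4. It was 0.19 between the 2 β chain genes and 0.03 between the 2 nidogen genes. These ranges cover unequal numbers of genes and so are not compared. The members other than α chains lay between -0.07 for Lamc1 and 0.36 for Hspg2.

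**Figure D1:**
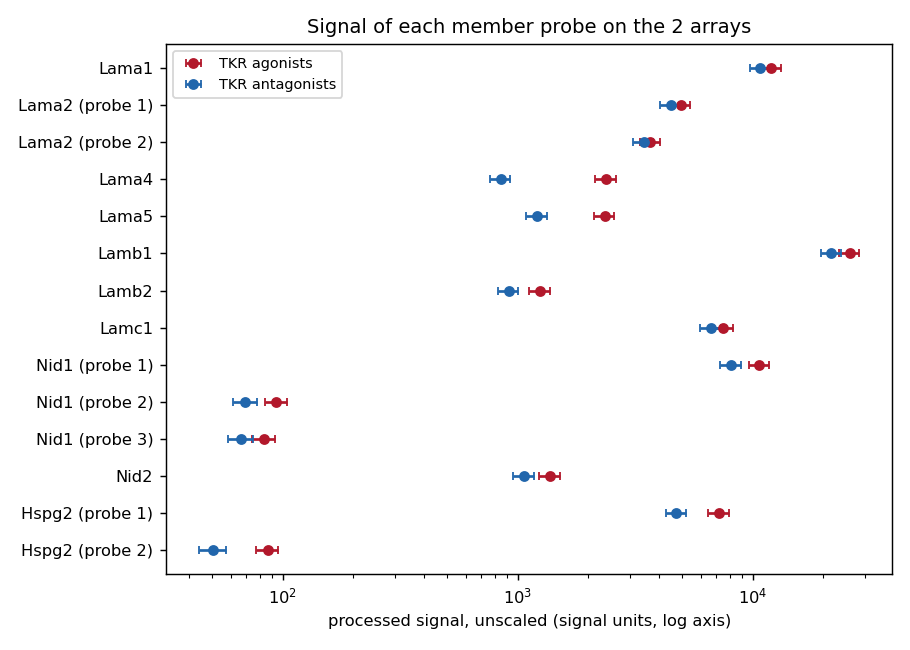
Processed signal of each of the 14 member probes (horizontal log axis, signal units, before scaling) on the agonist array (red) and the antagonist array (blue); bars are the image software's error of the spot. The points of Lama4 (2372 and 846) lie farthest apart and those of Lama2 probe 2 (3669 and 3440) closest; levels of different probes are not comparable.

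Start regions are shown for 3 members, Lama5 and Hspg2, the genes of the highest ratios that the RefSeq promoter table lists, and Nid1, which lay within its error. The table (GRCm38.p6) matched 6 of the 10 genes: Lama2, Lama5, Lamb1, Lamb2, Nid1 and Hspg2. Only bases before the annotated gene are printed, 5′ to 3′ on the gene's strand, and capitals mark GC boxes, the letters GGGCGG on either strand. The stretches are chr2:180225905-180226109 on the minus strand for Lama5, chr4:137468553-137468750 on the plus strand for Hspg2 and chr13:13437352-13437601 on the plus strand for Nid1.
Lama5: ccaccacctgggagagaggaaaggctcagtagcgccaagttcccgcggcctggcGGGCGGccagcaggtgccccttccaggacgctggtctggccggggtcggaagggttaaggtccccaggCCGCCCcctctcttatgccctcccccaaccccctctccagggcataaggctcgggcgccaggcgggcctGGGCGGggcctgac
Hspg2: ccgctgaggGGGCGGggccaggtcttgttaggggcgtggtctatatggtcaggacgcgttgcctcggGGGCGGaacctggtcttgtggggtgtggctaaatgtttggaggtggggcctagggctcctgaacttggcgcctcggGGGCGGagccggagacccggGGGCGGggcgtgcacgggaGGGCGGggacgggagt
Nid1: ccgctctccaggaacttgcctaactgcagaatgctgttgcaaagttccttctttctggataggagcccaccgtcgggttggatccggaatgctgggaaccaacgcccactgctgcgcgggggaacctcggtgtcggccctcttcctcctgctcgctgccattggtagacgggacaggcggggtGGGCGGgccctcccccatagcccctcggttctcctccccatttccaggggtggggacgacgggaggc

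The printed stretch held 3 GC boxes for Lama5, 5 for Hspg2 and 1 for Nid1. In the 250 bases before each promoter start, 4 of the 6 listed members had at least 1 GC box, against 32.7% of 32851 promoters. Lama2 and Lamb2 had 0. A promoter start can lie inside the annotated gene, so these 250 bases are not all before the gene. For Lama2 only 1 of the 250 bases lay before the gene. For Lamb1 103 did, and these held 0 GC boxes. TATAAA was found in 0 of the 6 members and in 12.4% of all promoters, and the AP-1 letters TGACTCA in 0 of the 6 and 4.46% of all. The STAT letters TTCNNNGAA were found in 1 of the 6, Lamb2, and in 7.02% of all promoters. Both strands were searched, and no member promoter held matches to more than 1 of these motifs. These matches are descriptions of the letters and show no binding. In their 250 bases Hspg2 had 5 GC boxes, Lama5 4, Lamb1 2 and Nid1 1. Whether the GC boxes relate to the ratios was not tested.

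The laminin α4 chain is a major α chain of the endothelial basement membrane and is also made by mesenchymal cells, fat and nerve. The Lama4 probe gave a processed signal of 2372 ± 237 with the agonists and 846 ± 84.7 with the antagonists, where the error is the image software's estimate for the spot. After scaling Lama4 was 2.37-fold higher with the agonists, a log2 ratio of 1.25 with a software error of 0.20. That ratio was 6.10 times its error. By RefSeq accession the gene had 1 probe, so no other probe was set beside it.

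The α5 chain is found in most epithelial basement membranes and in those of mature vessels. The Lama5 probe read 2346 ± 235 with the agonists and 1209 ± 121 with the antagonists. Lama5 was 1.64-fold higher with the agonists, with a log2 ratio of 0.71 and a software error of 0.20. The ratios of Lama4 and Lama5 exceeded their software error by more than 2 times, as no other member's did by its brightest probe. How many of all genes did so was not counted.

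The α1 chain is the laminin α chain of early embryonic and some epithelial basement membranes, and the α2 chain is that of muscle and peripheral nerve. Lama1 had a processed signal of 12008 ± 1201 with the agonists and 10776 ± 1078 with the antagonists, and its log2 ratio was -0.09 after scaling. Lama2 was read by a pair of probes. The brighter gave 4943 ± 494 with the agonists and 4486 ± 449 with the antagonists (log2 ratio -0.10), and the other gave 3669 ± 367 and 3440 ± 344 (log2 ratio -0.15). Relative to the median of all genes, Lama1 stood at 0.01 and Lama2 at -0.01. The α chains of the list were therefore split, Lama4 and Lama5 being higher with the agonists and Lama1 and Lama2 lying at the median of the array.

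The β1 and γ1 chains complete the most widespread laminin trimers, and the β2 chain takes the place of β1 at synapses, in the kidney filter and in vessel walls. Lamb1 had a processed signal of 25887 ± 2589 with the agonists and 21642 ± 2164 with the antagonists, and its log2 ratio was 0.02. Lamc1 had 7503 ± 750.3 with the agonists and 6643 ± 664 with the antagonists, and its log2 ratio was -0.07. Lamb2 had 1245 ± 125 with the agonists and 914 ± 91.5 with the antagonists, and its log2 ratio was 0.20, about the size of its software error. Before scaling, each of these 3 probes was brighter on the agonist array, as were all 14 member probes. The agonist array was also brighter as a whole, with a 75th percentile of 672 against 569 and an unscaled all-gene median log2 ratio of 0.15. The share of all probes brighter before scaling was not counted.

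Nidogen-1 and nidogen-2, the products of Nid1 and Nid2, bind the laminin γ1 chain and collagen IV. Nid1 was read by 3 probes. The brightest gave 10691 ± 1069 with the agonists and 8087 ± 809 with the antagonists, and its log2 ratio was 0.16. The other two, with signals between 66.6 and 93.9, gave 0.20 and 0.08. The 3 probes of Nid1 lay within 0.11 of each other on the log2 scale. The dim probes had software errors of 0.23 and 0.24, so this closeness says little. Nid2 had 1374 ± 137 with the agonists and 1061 ± 106 with the antagonists, and its log2 ratio was 0.13. Neither nidogen gene differed between the arrays by more than the software error of 0.20.

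Perlecan, the product of Hspg2, is the main heparan sulfate proteoglycan of vascular and follicular basement membranes. The bright Hspg2 probe gave 7181 ± 718 with the agonists and 4741 ± 474 with the antagonists, which is 1.28-fold higher with the agonists (log2 ratio 0.36, software error 0.20). The dim probe gave 86.2 ± 9.52 and 50.7 ± 6.72, which is 1.44-fold higher (log2 ratio 0.52, software error 0.25). Both probes pointed the same way and neither reached 1.5-fold, at 1.75 times the error for the bright probe and 2.11 times for the dim one.

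**Figure D2:**
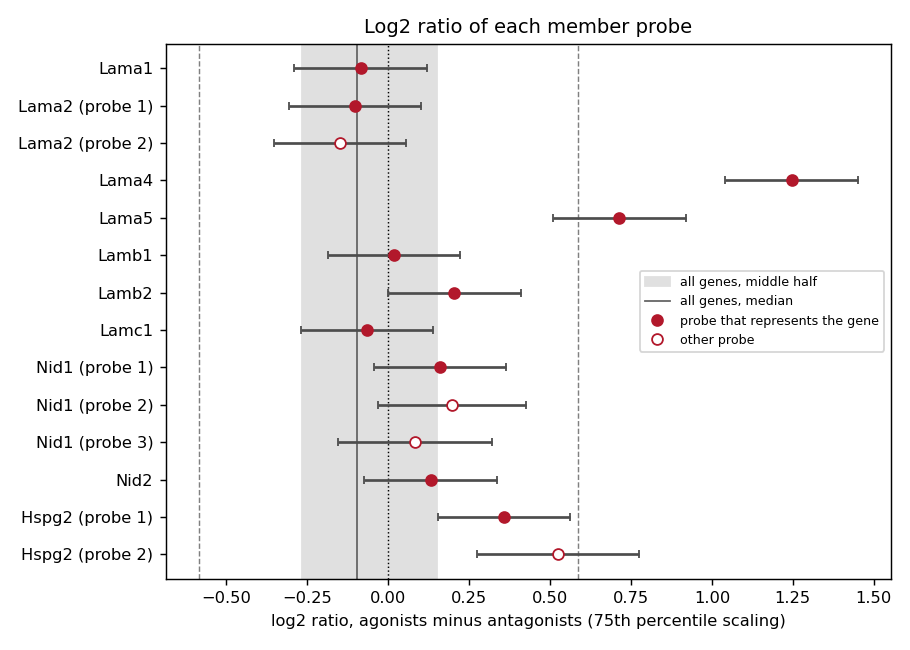
Log2 ratio (agonists minus antagonists, 75th percentile scaling) of each member probe, with the image software's error as bars; filled points represent the gene and open points are its other probes. The grey line and band are the median (-0.10) and middle range (-0.27 to 0.15, quartiles) of all 15256 genes, and dashed lines mark 1.5-fold; Lama4 (1.25) and Lama5 (0.71) stand to the right of the upper dashed line.

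In order of log2 ratio the genes were Lama4, Lama5, Hspg2, Lamb2, Nid1, Nid2, Lamb1, Lamc1, Lama1 and Lama2. No gene differed from its neighbour in this order by more than 2 times the combined software error. The gap was 0.53 between Lama4 and Lama5, with a combined error of 0.29, and 0.36 between Lama5 and Hspg2, with the same combined error. Of the 45 pairs of members, 13 differed by more than 2 times their combined error: Lama4 from 8 genes (all others but Lama5), and Lama5 from Nid2, Lamb1, Lamc1, Lama1 and Lama2. Each of these pairs thus holds 1 of the 2 genes already highest in the order. The share of all gene pairs past this cut was not counted. At these signals the software's error of a spot grows in proportion to its signal. It was about 10% for the probe that represents each member, so 2 errors act as nearly the same cut for every pair. An independent view of spot precision came from 284 probes printed at 10 spots and well above background at all of them, whose log2 ratio had a median SD between spots of 0.07. One of these reads Col4a1, a chain of the collagen IV that nidogens tie to laminin, with a log2 ratio of 0.25 ± 0.06 (SD over 10 spots). Both measures cover the spot and not the ovaries.

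**Figure D3:**
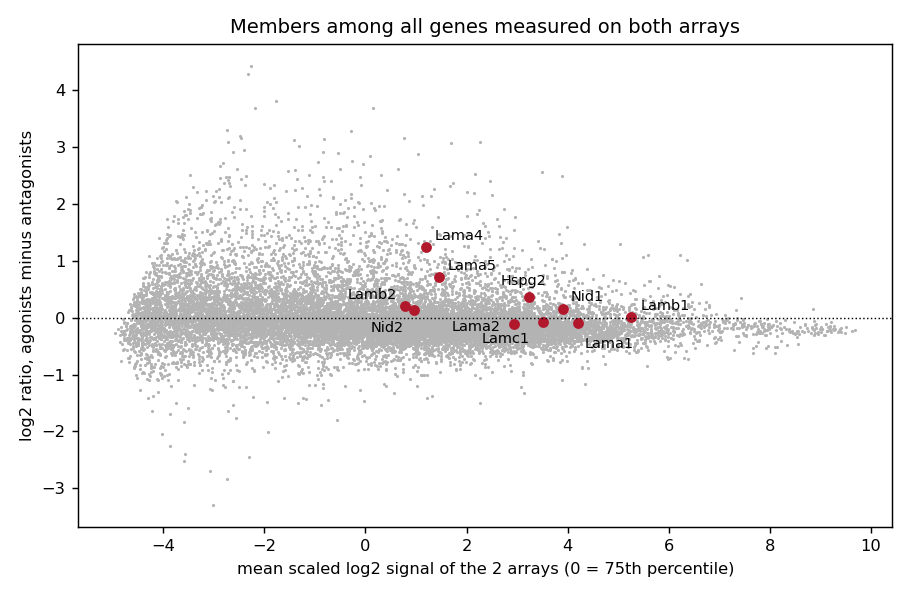
Log2 ratio against mean scaled log2 signal (0 is the 75th percentile) for all 15256 genes measured on both arrays (grey), with the 10 members in red. Every member lies to the right of 0 on the signal axis, Lama4 and Lama5 stand above the main cloud of genes, and Lama1, Lama2 and Lamc1 lie just below the dotted line at 0.

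Lama3, Lamb3 and Lamc3 are laminin chain genes outside the list of 10. The α3 and β3 chains belong to the laminin that anchors skin and other epithelia. Lama3 was read by a pair of probes that disagreed: the brighter gave 290.4 ± 29.3 with the agonists and 189 ± 19.3 with the antagonists (log2 ratio 0.38), and the other gave 181 ± 18.6 and 62.9 ± 7.73 (log2 ratio 1.28). Lamc3, the γ chain gene found in few tissues, had 557 ± 55.8 and 357 ± 35.9, a log2 ratio of 0.40. Lamb3 was well above background on the agonist array alone (22.1 against 13.9), and no fold is given because its bound fell under 1.

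Of 24 other basement membrane components, 22 were measured on both arrays, and their median log2 ratio was 0.25. In this list 8 genes lay at least 1.5-fold above their antagonist value with the agonists (background 9.26%), whereas 2 lay at least 1.5-fold lower (background 4.28%). The highest were Fbln2, encoding the matrix linker fibulin-2 (1953 ± 195 with the agonists and 599 ± 60.0 with the antagonists, log2 ratio 1.46), and Col18a1, the source of endostatin (8675 ± 867 and 3213 ± 321, log2 ratio 1.19). Another probe of Col18a1 gave 0.90. The lowest were Col4a4, a chain of a specialised collagen IV (244 ± 24.7 and 416 ± 41.8, log2 ratio -1.01), and Fras1, a protein of embryonic epithelial basement membranes (218 ± 22.2 and 284 ± 28.7, log2 ratio -0.62). Another probe of Col4a4 gave -0.28, so its size depended on the probe.

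Receptors of laminin and other basement membrane proteins were measured for 18 of 18 genes, with a median log2 ratio of 0.15. At least 1.5-fold higher were 3 of 18 (background 9.26%), and 1 of 18 was at least 1.5-fold lower, near the background of 4.28%. Itga2, the α subunit of a collagen and laminin integrin, had 68.0 ± 7.71 with the agonists and 28.1 ± 4.93 with the antagonists (log2 ratio 1.04, software error 0.30). Bcam, the Lutheran glycoprotein that binds the α5 chain, had 474 ± 47.6 and 212 ± 21.6 (log2 ratio 0.92). Dag1 encodes dystroglycan, a laminin receptor that binds chiefly the α1 and α2 chains. Its signals were 4429 ± 443 with the agonists and 6003 ± 600.3 with the antagonists, and its log2 ratio was -0.68. The 3 probes of Sgcb, a sarcoglycan gene of the dystroglycan complex, gave -0.36, -0.88 and -0.45.

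Among genes of matrix assembly, dystroglycan glycosylation and heparan sulfate synthesis, 19 of 20 were measured and their median log2 ratio was -0.10, the same as that of all genes. At least 1.5-fold higher were 0 of 19 (background 9.26%), and 1 of 19 was at least 1.5-fold lower, near the background of 4.28%: B4gat1, a glycosyltransferase that acts on dystroglycan, with 2164 ± 216 and 2880 ± 288 (log2 ratio -0.65). At the upper end Ext2, of heparan sulfate synthesis, had 0.31 and Plod3, a lysyl hydroxylase, had 0.20. In contrast, 15 of the 15 measured genes of matrix-degrading enzymes and their inhibitors lay above 0 (background 37.7%), with a median of 0.25 and 6 at least 1.5-fold higher (background 9.26%). Ctss, the macrophage protease cathepsin S, had 2896 ± 290 and 811 ± 81.3 (log2 ratio 1.59). The lowest were Ctsl and Mmp14, each with a log2 ratio of 0.06.

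**Figure D4:**
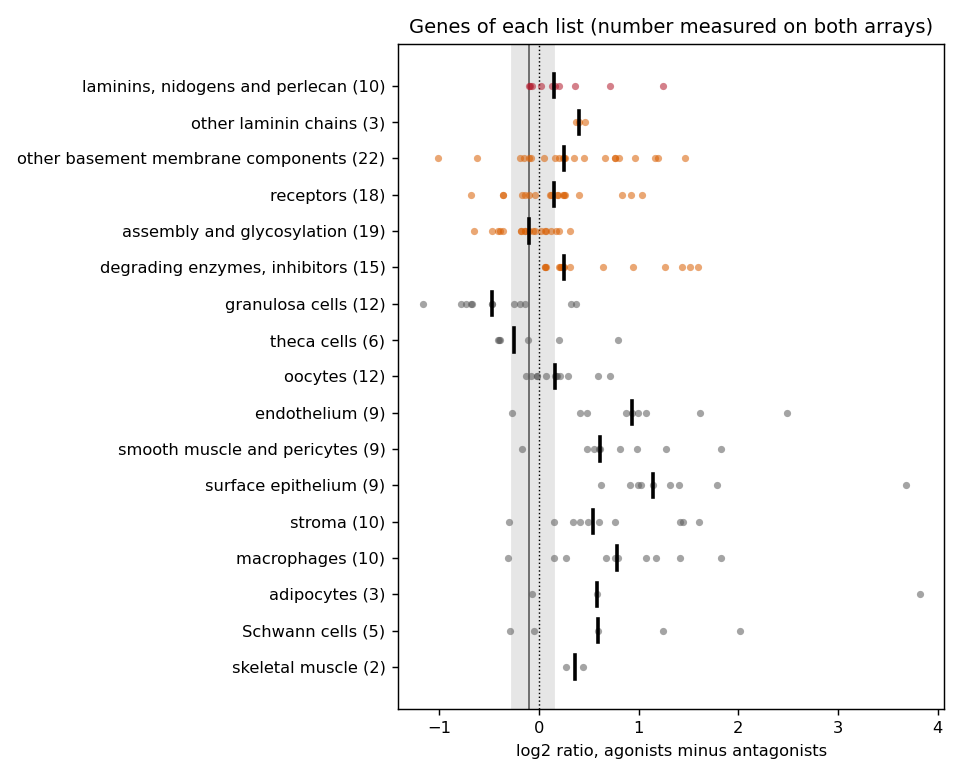
Log2 ratio (agonists minus antagonists) of each gene in each list, 1 point per gene, with a black bar at the list's median; the number of genes measured on both arrays is in parentheses, and the grey line and band are the median and quartiles of all genes. The laminin, nidogen and perlecan genes (red) have a median of 0.15, with Lama4 and Lama5 apart from the rest; the surface epithelium (1.15) and endothelium (0.93) lists have the highest medians and the granulosa list (-0.47) the lowest.

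Cell type markers also differed between the arrays, and their counts stand against the shares of all genes, 37.7% above 0 and, past 1.5-fold, 9.26% higher and 4.28% lower. Of the endothelial list, which marks cells that make the α4 and α5 chains, 9 of 10 genes were measured on both arrays; 8 lay above 0, 6 reached 1.5-fold higher, and the median was 0.93. Summed over the 9 genes, the endothelial signal was 77.0 times the array's 75th percentile with the agonists and 62.0 times with the antagonists. Levels of different probes are not comparable, and this sum and those below follow the brightest probes of each list. For the endothelium these were Egfl7 (log2 ratio 0.41) and Kdr, whose bright probe gave -0.27 and whose other probe gave 0.38. Tek was well above background on 1 array only. The surface epithelium list had 9 of 9 measured genes at least 1.5-fold higher, with a median of 1.15 and a sum of 41.4 against 17.8 in the same unit. The smooth muscle and pericyte list had 8 of 9 measured genes above 0 (median 0.62, sum 129 against 121), the stroma list 9 of 10 (median 0.54, sum 430.02 against 347) and the macrophage list 9 of 10 (median 0.78, sum 26.3 against 23.3). The macrophage median was 0.15 with bright probes only, those that reach the 75th percentile. The granulosa list had 10 of 12 below 0, 5 of them at least 1.5-fold lower, and a median of -0.47, and a sum of 141 against 199. The theca list had 2 of 6 above 0, near the share of all genes (median -0.26, sum 93.1 against 92.9), and its median turned to 0.046 with bright probes only and 0.021 with spike-in scaling. The oocyte list had 8 of 12 above 0 (median 0.17, sum 269 against 273). Oocyte, granulosa and theca markers were thus present, as the tissue label implies.

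Markers of other sources of α2 and α4 chains were partly below background. Of 7 adipocyte genes 3 were measured on both arrays and Adipoq and Lep on neither, with a median of 0.59 that became -0.074 without the filter on dim probes and a sum of 8.52 against 7.85. Of 8 Schwann cell genes 5 were measured, with a sum of 6.12 against 2.98 and a median of 0.59 that ranged from 0.12 with the dimmest probe of each gene to 1.31 with bright probes only, and Cdh19, Erbb3 and Foxd3 were on neither. Of 6 skeletal muscle genes 2 were measured, with a sum of 1.02 against 0.753, and Ckm, Myh1 and Mylpf were on neither. The part of these cell types in the ratios of Lama4, Lama5 and Hspg2 was not tested. In whole ovary pieces, more cells of a type and more RNA per cell cannot be told apart.

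The size of each ratio depended on how the arrays were scaled. With no scaling and with scaling on spike-in controls, the median of all genes rose from -0.10 to 0.15 and 0.18. Every member lay above 0 under these settings, as did the median of all genes. The share of all genes above 0 was not counted for these settings. The genes at least 1.5-fold different were then 92.3% and 93.7% higher with the agonists, against 68.4% with the 75th percentile. Of 14 alternatives, 5 shift all genes by one constant and so cannot change their order, and 6 returned the same value for Lama4 and Lama5, which have 1 probe at 1 spot. The remaining 3, quantile scaling, loess and normexp background correction, gave Lama4 between 1.28 and 1.37 and Lama5 between 0.68 and 0.84. With the constant shifts included, Lama4 lay between 1.19 and 1.52 and Lama5 between 0.66 and 0.99. Hspg2, Lamb2, Nid1 and Nid2 lay above 0 under each alternative, whereas Lama1, Lama2, Lamc1 and Lamb1 fell on both sides of 0.

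**Figure D5:**
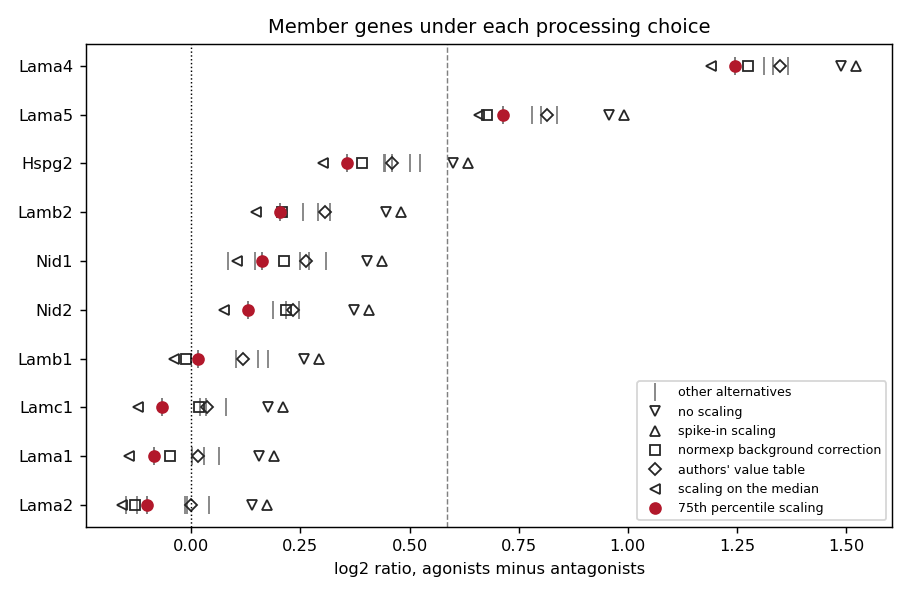
Log2 ratio (agonists minus antagonists) of each member gene under the 75th percentile scaling (red) and 14 alternatives (black and grey marks), with 1.5-fold higher as a dashed line. All marks of Lama4 (1.19 to 1.52) and Lama5 (0.66 to 0.99) lie right of that line, and those of Lama1, Lama2, Lamc1 and Lamb1 fall on both sides of 0.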

How the data were processed

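The authors scanned the arrays and read them with Agilent Feature Extraction 10.10.1.1, and deposited for each spot a linear, background-corrected intensity without scaling between arrays, an error for it, and other marks of 0 or 1 (well above background, outlier, saturated). Their summary table of intensities equals the processed signal times 1.99 for the agonist and 2.19 for the antagonist array. Both arrays came from 1 slide and 1 scan, and the probes were designed on mm9.

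Control spots and outlier spots were left out, log2 signals were reduced by the 75th percentile of their array, and spots of a probe were averaged. A probe was measured where over 50% of its spots were well above background. Of the probes, 27224 were paired with a symbol through RefSeq accessions (GRCm38.p6, used for names). Where 1 array measured a probe, the fold was bounded by setting the bright value against the dim one, or against the lowest signal marked well above background (18.1 agonist, 19.9 antagonist) if that was larger. Errors of log2 ratios combine the software's relative errors of the spots. Besides the members and other laminin chains, the text names the 2 highest and 2 lowest genes of each of 4 basement membrane lists, except some genes that are not reported here; Col4a1 was named after its values were seen, for its 10 spots. The members and lists were chosen with earlier results of these data known. The number of arrays limits the precision. Python 3.11.15, numpy 2.4.6, pandas 2.3.3, matplotlib 3.10.9, R 4.3.3 and limma 3.58.1 were used, and the calculation was tested on simulated data.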

Additional observations from a re-analysis of the deposited data

How the results depend on the processing

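No paired analysis was possible because a group holds only 1 array, and the values come without a test. The median log2 ratio of the 10 member genes, 0.15, lay between 0.09 with scaling on the median and 0.42 with spike-in scaling, and its distance above the median of all genes, 0.24, cannot change under the 5 settings that shift all genes alike; over the others it lay between 0.19 and 0.31. With a 2-fold threshold 1 member was higher, Lama4, in place of 2; with spike-in scaling and with no scaling Hspg2 also passed 1.5-fold. Of 140 member ratios under the alternatives, 20 moved by more than their software error, all with no scaling or spike-in scaling, and 18 changed sign, all of Lama1, Lama2, Lamc1 and Lamb1, whose ratios were within that error. The adipocyte median, 0.59 over 3 genes, became -0.074 both without the filter on dim probes and when probes under the 75th percentile were dropped. The theca median, -0.26, turned to 0.046 with bright probes only and 0.021 with spike-in scaling; bright probes only also moved the macrophage median from 0.78 to 0.15 and the Schwann median from 0.59 to 1.31, and the dimmest probes moved the latter to 0.12. Over all genes, those past 1.5-fold numbered 1413 higher and 653 lower. Unscaled signals gave 2360 and 197, spike-in scaling 2545 and 171, normexp (offset 50) 876 and 314, no filter 2680 and 1425, bright probes only 447 and 259, and a 2-fold threshold 612 and 88. Scaling on probes detected on both arrays gave 421 lower, and the authors' values 384. Quantile scaling, loess (span 0.3), other summaries of spots or probes and kept outliers left both counts within 1.5 times. Signal over background limits the dim probes of Nid1 and Hspg2 and the gene Lamb3.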

Other observations

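Several genes of the basement membrane lists had probes that disagreed, and these were picked after their values were seen. Npnt, encoding nephronectin, a ligand of an integrin, was well above background on the antagonist array alone by one probe (15.9 ± 4.56 with the agonists and 37.0 ± 5.81 with the antagonists, at least 2.41-fold lower with the agonists) and on the agonist array alone by another (23.4 ± 5.02 and 6.38 ± 4.70), whose bound fell under 1. For Itga1, an integrin subunit that binds collagen IV and laminin, the bright probe gave a log2 ratio of -0.17 and the dim one 1.14. For Col4a6 the bright probe gave 0.66 and the dim one -0.28. Among the members, the probes of Lama2, Nid1 and Hspg2 lay within 0.05, 0.11 and 0.17 of each other. Itga6 and Itgb1, which together form a major laminin receptor, had log2 ratios of 0.25 and 0.11 by their bright probes.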
